A study of Mus musculus with 9 samples.

Results

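The 46 genes described here are the mouse genes for the subunits, activators, inhibitor and assembly factors of the proteasome, together with Nfe2l1, and they were chosen by name from the 16937 genes listed in brown adipose tissue (BAT). A gene was taken when its symbol began with Psm, a letter from a to g and a digit. The 3 inducible catalytic subunits Psmb8, Psmb9 and Psmb10 were set aside as a comparison list, no name marked as a pseudogene was among the matches, and Nfe2l1 was added. The rule reads names and no measured value, and it was set with earlier results of these data known. All 46 genes were present in the tables of all 3 comparisons, which held 16312 to 16679 genes. Psma8 and Psmb11 carry names that the rule would take and were not listed. Psmc3ip was taken by its name although it is a meiotic recombination factor and no proteasome subunit.

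RNA was sequenced from BAT of 3 groups of adult mice on the C57Bl/6J background, aged 12 to 23 wk, with 3 libraries in each group. Wild-type mice were kept at 23 °C (WT RT) or moved to 4 °C for 8 h (WT Cold), and mice with a whole body deletion of Gcn2, the gene listed as Eif2ak4, were moved to 4 °C for 8 h (GCN2 KO Cold). All mice were housed singly and had food and water throughout. Both sexes were used in the study, and the labels do not give the sex behind a library. No GCN2 KO library at 23 °C was analysed here, so GCN2 KO Cold differs from WT RT in temperature and in genotype together. The codes of the 3 WT RT libraries begin with other letters than the 6 cold ones, so temperature and library set cannot be told apart. The labels call the libraries biological replicates, and they are named A, B and C within each group.

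The libraries held 27058799 to 30768064 reads assigned to genes, and the member with the fewest, Psmc3ip, had normalized counts of 46.2 to 65.3 in them. Ucp1, the uncoupling protein of brown fat, was between 3592 and 9693 CPM (reads scaled to a common library total) in the 9 libraries, and Adipoq and Fabp4 were high in all of them. The gene named for deletion, Eif2ak4, was not reduced in the knockout-labelled libraries. It had normalized counts of 347, 371 and 350 there and 171, 225 and 231 in WT Cold (adjusted p = 0.0932, limma). The count covers the whole gene, and the deleted stretch is not given in the sources used here, so it does not check the label. The title of 1 GCN2 KO sample names both genotypes, and its genotype field was used. Which of the 3 knockout-labelled libraries it is was not given by the library codes.

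The 26S proteasome is the protease that breaks down proteins tagged with ubiquitin. Its core particle, the 20S, is a barrel of alpha rings, which form the gate, and beta rings, which hold the cutting sites. Its regulatory particle, the 19S, has a base with a ring of ATPases that unfold and thread the substrate, and a lid that takes off ubiquitin. Nfe2l1 (NRF1, TCF11) is a transcription factor held at the endoplasmic reticulum and processed when proteasome activity falls short, after which it raises the genes of the subunits. In brown fat it is known as a factor needed for adaptation to cold.

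In WT Cold, transcripts of the core and regulatory particles stood above their WT RT levels by small steps. Of the 31 subunits of these particles, 13 rose, none fell and 18 did not pass the test (limma, adjusted p under 0.05). Their median log2 fold change was 0.25, beside 0.00 for all 16679 genes tested, and 29 of 31 values were positive. Over all 46 members 15 rose and 4 fell. Over all genes tested 13.6% rose and 14.1% fell. The 3 cold libraries did not overlap the 3 WT RT libraries in 31 of 46 members, beside 45.5% of all genes. No member reached a log2 fold change over 1, a size that 8.14% of all genes passed together with the adjusted p. Nfe2l1 itself had a log2 fold change of -0.09 ± 0.11 (SE, adjusted p = 0.594).

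**Figure D1:**
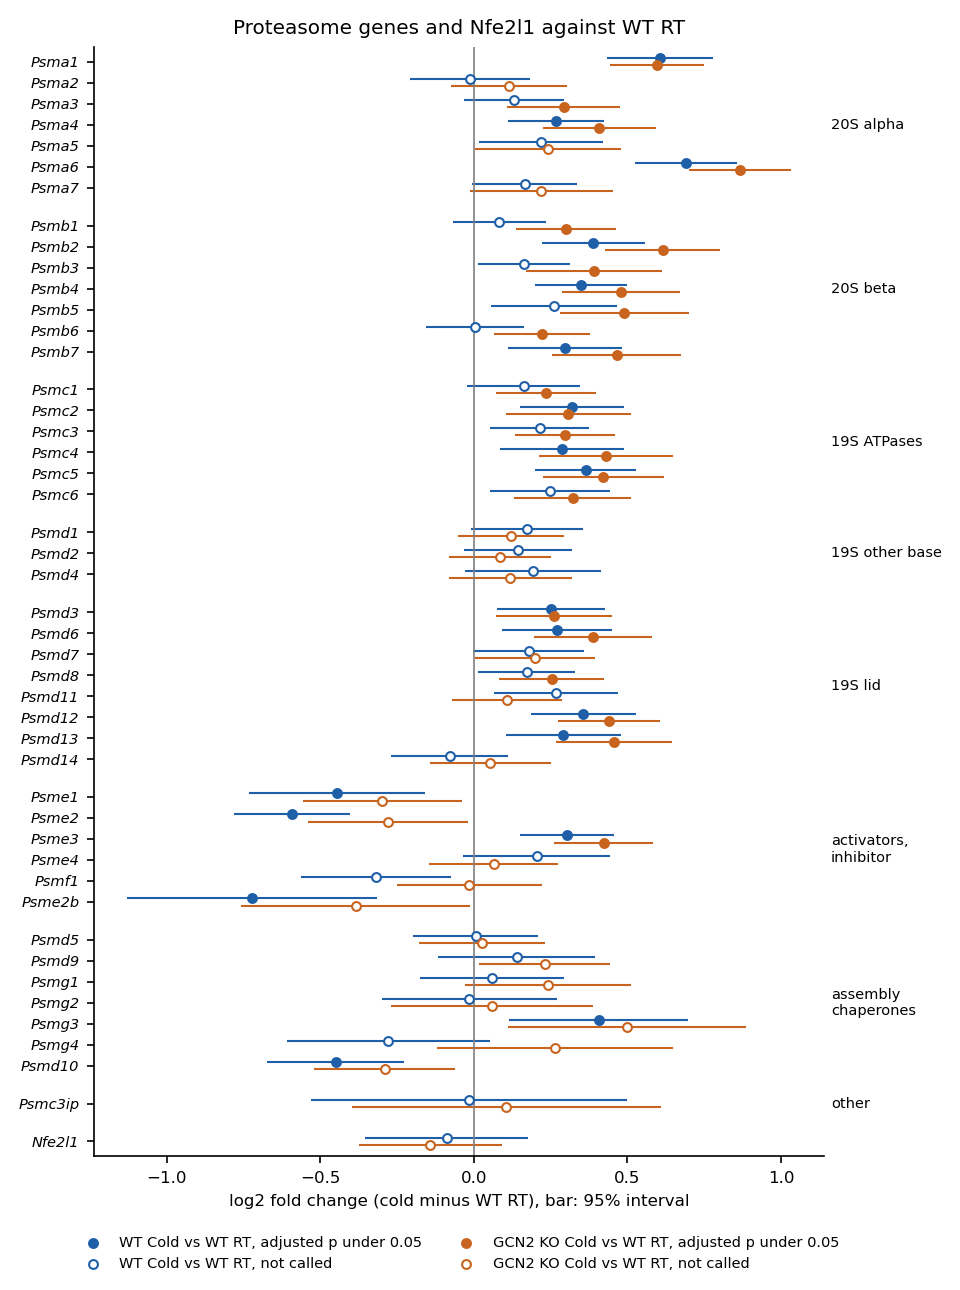
Log2 fold change of each of the 46 genes (rows, grouped by sub-complex) against WT RT, in blue for WT Cold and in orange for GCN2 KO Cold, with 95% intervals from limma and filled points for adjusted p under 0.05. Most 20S and 19S points lie to the right of 0, Psme1, Psme2, Psme2b and Psmd10 lie to the left, and the interval of Nfe2l1 holds 0 in both; both comparisons share the 3 WT RT libraries.

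The promoter windows of the members that lead or mark the results are printed here, since the shared control of subunit genes is usually sought there. Each window runs from 250 bases before to 50 bases after a transcript start of RefSeq (build GRCm38.p6) and is written 5′ to 3′ along the gene. Capitals mark matches, on either strand, to any of 4 letter patterns: TGACNNNGC, the core of the antioxidant response element that Nfe2l1 and its relative Nfe2l2 bind, CCAAT, the box bound by NF-Y, CCGGAAG, a site of the ETS family, and GAAA followed by any 2 bases and GAAA again, the interferon-stimulated response element. Psma6 and Psma1 had the largest rises in WT Cold, Psmb5 and Psmb6 are catalytic and hold TGACNNNGC, and Psme1 is the PA28 gene among the 5 members that hold the interferon element.
Psma6 (chr12:55398575-55398874, + strand): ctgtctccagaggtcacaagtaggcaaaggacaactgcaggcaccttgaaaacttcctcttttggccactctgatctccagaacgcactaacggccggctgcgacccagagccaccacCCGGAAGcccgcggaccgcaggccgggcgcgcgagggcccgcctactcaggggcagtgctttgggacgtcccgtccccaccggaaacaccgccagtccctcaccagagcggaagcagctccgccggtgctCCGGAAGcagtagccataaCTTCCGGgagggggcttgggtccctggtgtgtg
Psma1 (chr7:114276067-114276366, - strand): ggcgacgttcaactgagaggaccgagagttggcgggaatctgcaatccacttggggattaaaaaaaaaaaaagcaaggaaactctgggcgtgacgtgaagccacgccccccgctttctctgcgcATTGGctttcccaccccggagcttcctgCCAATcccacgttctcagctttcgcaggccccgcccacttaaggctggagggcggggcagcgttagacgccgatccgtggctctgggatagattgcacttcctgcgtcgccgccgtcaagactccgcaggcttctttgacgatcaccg
Psmb5 (chr14:54617946-54618245, - strand): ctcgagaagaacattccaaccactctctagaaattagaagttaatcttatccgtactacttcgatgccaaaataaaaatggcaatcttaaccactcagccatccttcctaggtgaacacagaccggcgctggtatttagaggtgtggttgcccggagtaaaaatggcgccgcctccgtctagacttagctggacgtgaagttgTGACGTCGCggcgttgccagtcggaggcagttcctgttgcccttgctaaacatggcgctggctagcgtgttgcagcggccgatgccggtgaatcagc
Psmb6 (chr11:70525107-70525406, + strand): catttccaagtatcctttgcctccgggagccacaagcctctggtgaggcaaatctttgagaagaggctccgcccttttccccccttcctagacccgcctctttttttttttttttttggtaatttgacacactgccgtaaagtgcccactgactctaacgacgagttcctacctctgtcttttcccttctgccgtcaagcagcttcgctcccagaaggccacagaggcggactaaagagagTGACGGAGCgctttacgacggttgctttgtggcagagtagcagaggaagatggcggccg
Psme1 (chr14:55578244-55578543, + strand): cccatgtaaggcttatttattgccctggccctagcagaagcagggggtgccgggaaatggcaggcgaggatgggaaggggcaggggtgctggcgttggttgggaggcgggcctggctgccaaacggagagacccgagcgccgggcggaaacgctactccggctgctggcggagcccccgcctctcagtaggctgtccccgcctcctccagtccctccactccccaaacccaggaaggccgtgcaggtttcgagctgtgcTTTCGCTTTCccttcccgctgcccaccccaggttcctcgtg

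In the Psmb5 window the TGACNNNGC match reads TGACGTCGC and begins 47 bases before the start. In the Psmb6 window it reads TGACGGAGC and begins 9 bases before the start. Windows were found for 39 of the 46 members, and a member with several starts counted as a match when any window held the pattern. TGACNNNGC was present in 6 of 39 (15.4%), namely Psmb5, Psmb6, Psmc6, Psmd9, Psmd12 and Psme4, beside 16.7% of the 12060 listed genes with a window and 12.4% of all windows in the table. CCAAT was present in 14 of 39 (35.9%), beside 42.1% of listed genes and 37.4% of windows. CCGGAAG was present in 15 of 39 (38.5%), beside 17.6% of listed genes and 8.86% of windows. The interferon element was present in 5 of 39 (12.8%), Psmb3, Psmd4, Psmd9, Psme1 and Psmg4, beside 3.96% and 3.44%. Of these 5 only Psme1 was called lower in a comparison (limma, WT Cold against WT RT), and the windows of Psme2, Psme2b, Psmb8, Psmb9 and Psmb10, which were called lower too, held no match. The Psma6 window above holds CCGGAAG 3 times, while another Psma6 start, with the window chr12:55383972-55384271, holds CCAAT 2 times, and the counts per gene do not show which start was used. A match is a run of letters, and binding was not measured.

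Within the core and regulatory particles the subunits are present in equal or fixed numbers in the protein complex, but their transcripts were not at equal levels. In WT RT the 31 subunits ranged from 13.8 ± 0.6 CPM per kilobase of exon for Psmd11 to 167.7 ± 4.9 for Psma6 (SD, n = 3), a span of 12.1-fold with a median of 46.2. Psma6 and Psmb5 (164.3 ± 16.8) led and lay within their spread of each other, and the next, Psmc5, was at 81.3 ± 1.2. Of the 30 neighbouring pairs in the order 19 differed by no more than the sum of their SDs, for example Psmd2 at 48.5 ± 1.2 and Psmd4 at 48.5 ± 2.7. At the low end Psmd1 stood at 15.5 ± 0.6. The lid had the lowest median of the larger groups at 28.0, the alpha ring was at 46.2, the ATPases at 47.0 and the beta ring at 65.0. The length used is the union of all annotated exons, so a gene with long rarely used exons is set too low on this scale. Nfe2l1 was at 82.9 ± 7.7, within its spread of Psmc5, and Psme2 was at 72.2 ± 6.7.

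**Figure D2:**
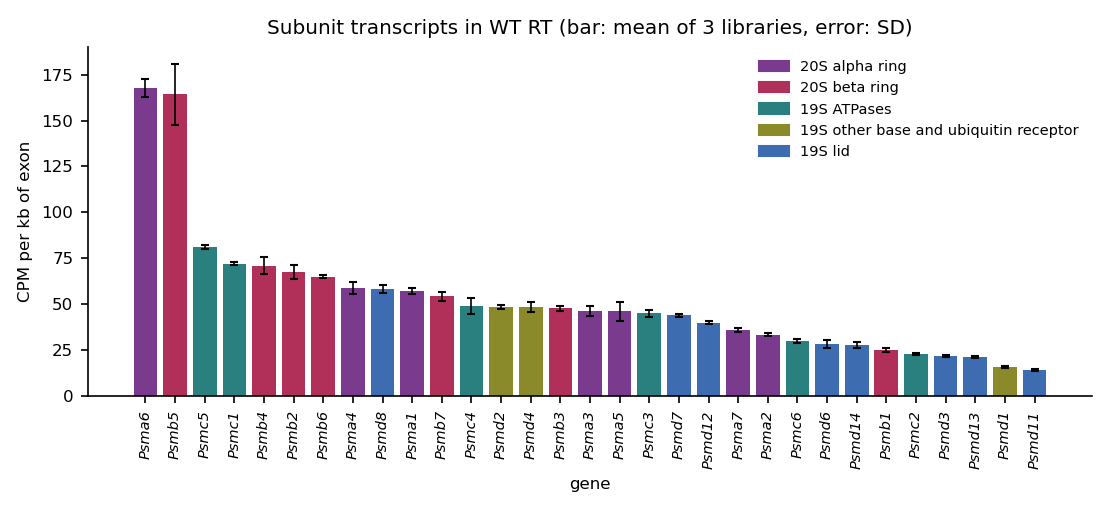
Level of the 31 core and regulatory particle subunits in WT RT, as CPM per kilobase of exon on the vertical axis (bars, mean of 3 libraries; error bars, SD; colour, sub-complex), in falling order. Psma6 at 167.7 and Psmb5 at 164.3 stand apart from the rest, which lie between 13.8 and 81.3.

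Psma6 encodes an alpha ring subunit and had the largest rise of any member. Its normalized counts were 9358, 10019 and 9399 in WT Cold and 5644, 5892 and 6286 in WT RT. The groups did not overlap, and the log2 fold change was 0.69 ± 0.07 (SE, adjusted p = 0.000741, limma). Psma1, another alpha ring subunit, had 7011, 7146 and 7972 in WT Cold against 4700, 4849 and 4956 in WT RT (log2 fold change 0.61 ± 0.07, adjusted p = 0.0014). Psma4 rose by 0.27 on the log2 scale. The other 4 alpha genes, Psma2, Psma3, Psma5 and Psma7, did not pass, with log2 fold changes from -0.01 to 0.22. An assembled ring holds its alpha subunits in equal number, and the transcript level of Psma6 relative to Psma2 on the CPM per kilobase scale went from 5.03 ± 0.15 in WT RT to 8.25 ± 1.05 (WT Cold) and 8.50 ± 0.81 (GCN2 KO Cold) (SD, n = 3 each).

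The beta ring holds the 3 catalytic subunits: Psmb5 cuts after hydrophobic residues, Psmb6 after acidic and Psmb7 after basic residues. Psmb5 had normalized counts of 5064, 4982 and 5120 in WT Cold and 3720, 4514 and 4475 in WT RT. All 3 cold values were the higher ones, yet WT RT library A lay well below its group, and the log2 fold change of 0.26 ± 0.09 did not pass (adjusted p = 0.0636). Psmb6 had 3348, 3521 and 3621 against 3398, 3437 and 3632, so the groups overlapped throughout (log2 fold change 0.00, 95% interval -0.16 to 0.16, adjusted p = 0.978). Its sign turned negative under library totals, edgeR, TMM scaling and the fits over all 9 libraries, where it did not pass either. Psmb7 had 6968, 6191 and 6444 against 4954, 5371 and 5633 and rose by 0.30 ± 0.08 on the log2 scale (adjusted p = 0.0283). The 3 catalytic genes thus had mean fold values up to 1.23. Among the non-catalytic members Psmb2 had the largest rise of the ring, with 3214, 3044 and 2867 in WT Cold and 2285, 2388 and 2291 in WT RT (log2 fold change 0.39 ± 0.07, adjusted p = 0.00711). Psmb4 rose by 0.35, while Psmb1 (0.08) and Psmb3 (0.16) did not pass.

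Of the 6 ATPases of the 19S base, Psmc2, Psmc4 and Psmc5 rose and Psmc1, Psmc3 and Psmc6 did not pass, and all 6 values were positive, between 0.16 and 0.36 on the log2 scale. Psmc5 had 4138, 4062 and 4353 in WT Cold and 3216, 3107 and 3430 in WT RT, with no overlap (log2 fold change 0.36 ± 0.07, adjusted p = 0.00836). The scaffold subunits Psmd1 and Psmd2 and the ubiquitin receptor Psmd4 did not pass. Psmd1 had 3717, 3406 and 3794 against 3033, 3244 and 3412, where the lowest cold library lay just below the highest WT RT library (log2 fold change 0.17 ± 0.08, adjusted p = 0.139). Psmd2 and Psmd4 were at 0.14 and 0.19. In the lid Psmd3, Psmd6, Psmd12 and Psmd13 rose. Psmd12 had 3936, 3660 and 4016 against 2906, 2977 and 3187 (log2 fold change 0.36 ± 0.07, adjusted p = 0.0103). Psmd14, the enzyme of the lid that removes ubiquitin, was at -0.08 (adjusted p = 0.508), and Psmd7, Psmd8 and Psmd11 were positive and did not pass.

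The proteasome activators went in opposite directions. Psme1 and Psme2 encode the PA28 alpha and beta caps, which open the core particle and are known for their part in making antigen peptides, and both fell. Psme2 had 2243, 2447 and 2572 in WT Cold and 3743, 3782 and 3412 in WT RT, with no overlap (log2 fold change -0.59 ± 0.08, adjusted p = 0.00221). Psme1 had 1699, 2058 and 1708 against 2649, 2705 and 2106 (log2 fold change -0.45 ± 0.12, adjusted p = 0.0316), and its highest cold library lay just below its lowest WT RT library. Psme2b, an intronless near copy of Psme2, had 144, 124 and 185 against 250, 260 and 230 (log2 fold change -0.72 ± 0.18, adjusted p = 0.0199). Reads may be shared between Psme2b and Psme2, so the split between them is uncertain. Psme3, the nuclear PA28 gamma cap, rose instead, with 2727, 2680 and 2637 against 2124, 2154 and 2245 (log2 fold change 0.30 ± 0.07, adjusted p = 0.0132). Per kilobase the level of Psme2 relative to Psme3 was 2.81 ± 0.23 in WT RT, 1.51 ± 0.13 (WT Cold) and 1.73 ± 0.26 (GCN2 KO Cold) (SD, n = 3 each). Psme4, the PA200 cap, and Psmf1, the inhibitor PI31, were at 0.20 and -0.32 and did not pass.

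**Figure D3:**
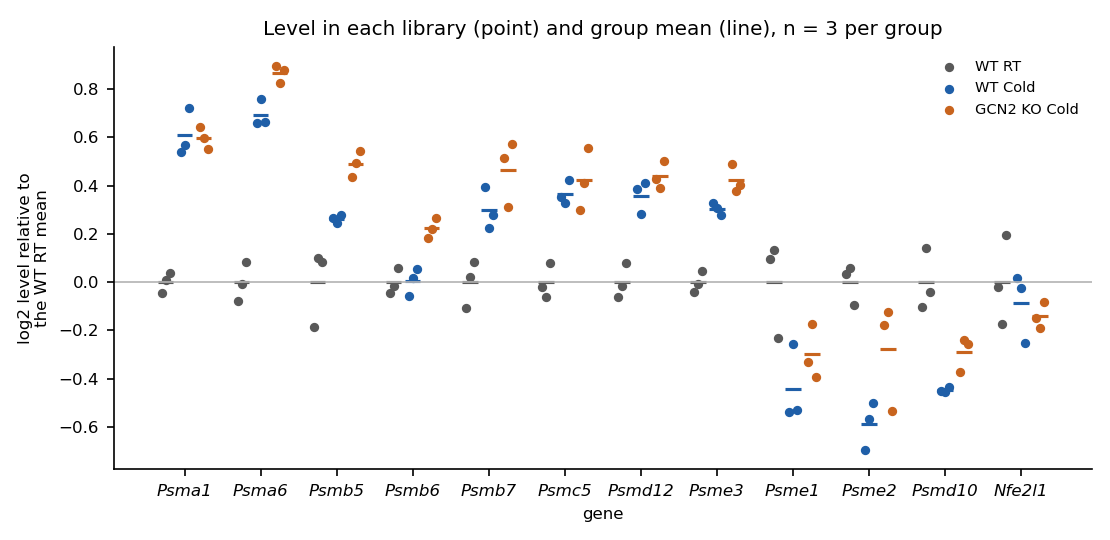
Level of 12 members in each of the 9 libraries (points; grey, WT RT; blue, WT Cold; orange, GCN2 KO Cold) with group means (lines), on a log2 scale relative to the WT RT mean after scaling all libraries together by the median of ratios. Psma1 and Psma6 lie above every WT RT library in both cold groups, Psme2 lies below, and the 9 values of Nfe2l1 overlap between the groups.

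The assembly chaperones, which build the rings and the base and leave the finished particle, did not rise as a group. Psmd10 (gankyrin), a chaperone of the base, fell, with 544, 542 and 552 in WT Cold and 699, 821 and 726 in WT RT (log2 fold change -0.45 ± 0.10, adjusted p = 0.012). Psmg3, a chaperone of the alpha ring, rose by 0.41 ± 0.13 on the log2 scale (adjusted p = 0.0462), a call that was lost on leaving out any 1 of the 6 libraries. The other 5, Psmd5, Psmd9, Psmg1, Psmg2 and Psmg4, did not pass, and the median of the 7 was 0.01. Psmc3ip was at -0.02 (adjusted p = 0.962).

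Nfe2l1 had normalized counts of 13031, 12622 and 10837 in WT Cold and 12751, 11395 and 14756 in WT RT. The groups overlapped, and the 95% interval of the log2 fold change ran from -0.35 to 0.18. The transcript count says nothing of how much of the protein was processed or reached the nucleus. Of the 20 measured genes of a list for its control and partners, 8 rose, 3 fell and 9 did not pass, beside 13.6% and 14.1% of all genes, and the count that fell is near that share. The small MAF genes, which pair with it on DNA, rose: Maff by 1.42, Mafk by 0.84 and Mafg by 0.47 on the log2 scale. Nploc4 (0.50) and Ufd1 (0.36), cofactors of the segregase that pulls it from the membrane, Ddi2 (0.36), the protease that clips it, Rad23b (0.40), a ubiquitin shuttle, and Nfe2l2 (0.28), its relative, rose too. Btrc, a ubiquitin ligase adaptor that marks it for breakdown, fell by 0.83, Sel1l, of the membrane ligase complex, fell by 0.41, and Nfe2l3, another relative, fell by 1.39 from a level near 1 CPM.

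Of 11 measured partners outside the Psm names, 1 rose and 2 fell, which is near the shares of all genes (13.6% and 14.1%). Zfand5, which stimulates the proteasome, rose by 0.38, Uchl5, a deubiquitinase of the base, fell by 0.65 and Pitpnm1 fell by 0.33. Pitpnm1 encodes a phosphatidylinositol transfer protein and is not known as a proteasome partner, so it is counted here only because the list held it. Of 8 ubiquitin receptors and shuttles, Rad23b, Ddi2 and Nbr1 rose.

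How many members were called depended on the libraries and the scaling. The count of 15 that rose was 7 without WT Cold library A, 8 without WT Cold library B and 7 without WT RT library A, and the count of 4 that fell was 2 without WT Cold library A, WT RT library A or WT RT library B. With library totals in place of the deposited scaling the median of all genes moved to -0.08 and 7 members rose. Over all genes the split of higher to lower calls went from 2268 and 2356 to 1570 and 2905. The median of the members was 0.17 above that of all genes on both scales. That distance had to stay, since library scaling moves all genes of a library alike, and it is no check of the rise. Psma1, Psma6, Psmb2, Psmb4, Psmc5 and Psmd12 rose and Psme2 and Psmd10 fell under all 16 alternative fits. The other 9 that rose (Psma4, Psmb7, Psmc2, Psmc4, Psmd3, Psmd6, Psmd13, Psme3 and Psmg3) and Psme1 and Psme2b each lost the call on leaving out at least 1 library. Of the 6 fits that left out 1 library, the call was kept in 5 for Psmc2 and Psme3, 3 for Psme1, 2 for Psma4, Psmb7, Psmd6, Psmd13 and Psme2b, 1 for Psmc4 and Psmd3, and 0 for Psmg3.

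The immunoproteasome subunits replace the constitutive catalytic ones in leukocytes and in cells exposed to interferon, and all 3 fell in WT Cold. Psmb9 had 205, 200 and 232 normalized counts in WT Cold and 714, 794 and 452 in WT RT (log2 fold change -1.58 ± 0.21, adjusted p = 0.00188). Psmb8 had 410, 491 and 640 against 1267, 1616 and 957 (log2 fold change -1.31 ± 0.22, adjusted p = 0.00473). Psmb10 had 632, 644 and 732 against 1038, 1263 and 885 (log2 fold change -0.65 ± 0.14, adjusted p = 0.012). In all 3 genes the groups did not overlap, and WT RT library C was the lowest of its group. On the CPM per kilobase scale Psmb8 amounted to 8.09% ± 2.09 of Psmb5 in WT RT, 2.70% ± 0.59 (WT Cold) and 2.56% ± 0.62 (GCN2 KO Cold) (SD, n = 3 each). Psmb9 amounted to 9.64% ± 2.89, 3.11% ± 0.19 and 2.93% ± 0.60 of Psmb6, and Psmb10 to 40.2% ± 8.0, 20.6% ± 2.3 and 21.5% ± 3.5 of Psmb7, in the same order of groups. Psmb8 and Psmb9 were thus minor transcripts beside their constitutive counterparts in every library.

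**Figure D4:**
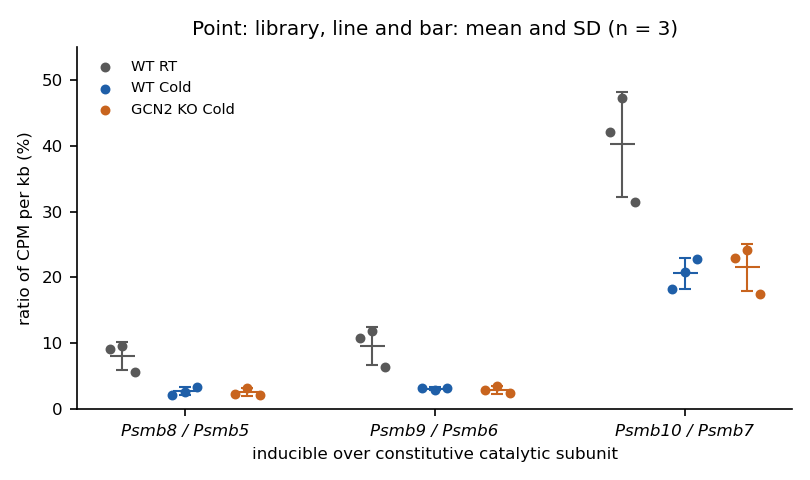
Ratio of each inducible catalytic subunit to the constitutive subunit it replaces, as percent of CPM per kilobase of exon (vertical axis from 0), in each library (points) with mean and SD (lines and bars; n = 3 per group). All 3 ratios are higher in the WT RT libraries than in any cold library, and WT RT library C is the lowest of its group.

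Genes of leukocytes and of the interferon response were lower alongside Psmb8, Psmb9, Psme1 and Psme2 in WT Cold against WT RT. Of 12 leukocyte markers 7 fell and none rose in WT Cold against WT RT (limma), beside 14.1% and 13.6% of all genes. Their median log2 fold change was -1.01, and their summed level was 426, 538 and 321 CPM in WT RT and 191, 148 and 199 CPM in WT Cold. The T cell marker Cd3e and the B cell marker Ms4a1 were at or under 1.08 CPM in all 9 libraries. All 12 interferon-induced genes fell, with a median of -2.41, and their summed level was 690, 1087 and 495 CPM against 148, 162 and 199 CPM. The part of these lists in the fall of the inducible subunits and of PA28 was not tested. In bulk tissue fewer cells of a type and less RNA per cell cannot be told apart. Skeletal muscle markers had a summed level of 2876, 2540 and 2326 CPM in WT RT and 3697, 3448 and 2203 CPM in WT Cold. Of these markers 1 of 12 rose, near the share of all genes (13.6%).

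The knockout-labelled libraries (GCN2 KO Cold) also stood above WT RT in their subunit transcripts. Of the 46 members 23 rose and none fell (limma, adjusted p under 0.05). At an unadjusted p under 0.05, 27 were higher and 4 lower, beside 21.2% and 23.2% of all genes. By the adjusted test 16.4% of the 16560 genes in this table rose and 17.8% fell. DESeq2 gave no lower call either, and edgeR gave 1. Of the 31 core and regulatory particle subunits 22 rose and all 31 values were positive, with a median log2 fold change of 0.30 beside 0.01 for all genes. The groups did not overlap in 29 of 46 members, beside 49.2% of all genes. All 7 beta ring genes and all 6 ATPases rose, along with 4 of 7 alpha genes and 5 of 8 lid genes. Without WT RT library A the calls of Psma3, Psmb3, Psmb6, Psmc1, Psmc2, Psmc3, Psmc6, Psmd3 and Psmd8 were lost, with adjusted p from 0.0522 for Psmc3 to 0.119 for Psmd3. On leaving out each of the 6 libraries in turn, Psmb6, Psmc2 and Psmd3 kept the call in 1 fit each and Psmc1 and Psmd8 in 2 each. Psmd1, Psmd2 and Psmd4 did not pass, at 0.12, 0.09 and 0.12.

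Psma6 again had the largest value, with 10415, 9904 and 10287 normalized counts in GCN2 KO Cold and 5318, 5556 and 5929 in WT RT (log2 fold change 0.87 ± 0.07, adjusted p = 0.000184). Psmb2 had 3216, 3172 and 3694 against 2154, 2252 and 2161 (log2 fold change 0.62 ± 0.08, adjusted p = 0.00112). The catalytic genes all rose here. Psmb5 had 5392, 5592 and 5789 against 3506, 4257 and 4221 (log2 fold change 0.49 ± 0.09, adjusted p = 0.00451). Psmb7 had 7153, 6209 and 7443 against 4668, 5065 and 5314 (log2 fold change 0.47 ± 0.09, adjusted p = 0.0057). Psmb6 had the smallest rise of the ring, with 3737, 3823 and 3947 against 3202, 3241 and 3426 (log2 fold change 0.22 ± 0.07, adjusted p = 0.0357). Of the 19S genes, the ATPase Psmc4 had 3643, 3781 and 4163 against 2548, 2989 and 3081 (log2 fold change 0.43 ± 0.09, adjusted p = 0.00949). The lid gene Psmd13 had 2570, 2560 and 2834 against 1912, 1820 and 2072 (log2 fold change 0.46 ± 0.08, adjusted p = 0.00386), and the scaffold gene Psmd1 had 3385, 3158 and 3381 against 2858, 3060 and 3219 and overlapped WT RT (adjusted p = 0.253). In each of these genes but Psmd1 the groups did not overlap.

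Outside the 26S particle, Psme3 rose by 0.42 ± 0.07 on the log2 scale, with 2877, 2665 and 2704 in GCN2 KO Cold and 2002, 2031 and 2118 in WT RT (adjusted p = 0.00287). Psme1 and Psme2 were lower without passing, at -0.30 (adjusted p = 0.0738) and -0.28 (adjusted p = 0.093). Psmg3 had the smallest p of the chaperones, with 223, 311 and 313 against 191, 218 and 184 (log2 fold change 0.50 ± 0.17, adjusted p = 0.0513). Nfe2l1 had 10959, 10657 and 11467 in GCN2 KO Cold and 12015, 10746 and 13920 in WT RT, so that 1 of the WT RT libraries lay inside the range of the knockout-labelled libraries (log2 fold change -0.14 ± 0.10, adjusted p = 0.315). With library totals Nfe2l1 passed as lower, at -0.34 (adjusted p = 0.0126, limma), where the median of all genes was -0.19. With all 9 libraries in 1 fit, also on library totals, its adjusted p was 0.0208 (limma). On that scale it had 355, 341 and 367 CPM in GCN2 KO Cold and 452, 409 and 492 CPM in WT RT, with no overlap. Psmb8, Psmb9 and Psmb10 fell by 1.16, 1.46 and 0.43 on the log2 scale, and the call of Psmb10 was kept in 2 of the 6 fits that left out 1 library. In this comparison 8 of 12 leukocyte markers, all 12 interferon-induced genes and 10 of 12 skeletal muscle markers fell, beside 17.8% of all genes.

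Both comparisons use the same WT RT libraries, so their values are only set side by side. The list of members that rose had 14 genes in common, Psmg3 was called in WT Cold alone, and Psma3, Psmb1, Psmb3, Psmb5, Psmb6, Psmc1, Psmc3, Psmc6 and Psmd8 were called in GCN2 KO Cold alone. A difference in calls is no test of a difference between genotypes, which the next comparison gives. Without WT RT library A the count for GCN2 KO Cold was 14 in place of 23. With library totals the median of all genes moved to -0.19, and 9 members rose and 5 fell. The split of higher to lower calls over all genes went from 2713 and 2944 to 1486 and 4820. The median of the members was 0.24 above that of all genes on both scales, a distance that library scaling cannot alter. Psma1, Psma6, Psmb2, Psmb4, Psmb5, Psmb7, Psmd12, Psmd13 and Psme3 rose under all 16 alternative fits.

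Between the groups in the cold no member differed by the adjusted test. None of the 46 rose or fell in the knockout-labelled libraries by limma, DESeq2 or edgeR, in a table where 0.178% of the 16312 genes rose and 0.227% fell. At an unadjusted p under 0.05, 8 members were higher and none lower by limma, 6 and none by DESeq2 and 9 and none by edgeR, beside 7.83% of all genes higher and 7.49% lower by limma. The median log2 fold change of the members was 0.12, beside -0.00 for all genes, and 38 of 46 values were positive. The groups did not overlap in 15 of 46 members, beside 22.0% of all genes.

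**Figure D5:**
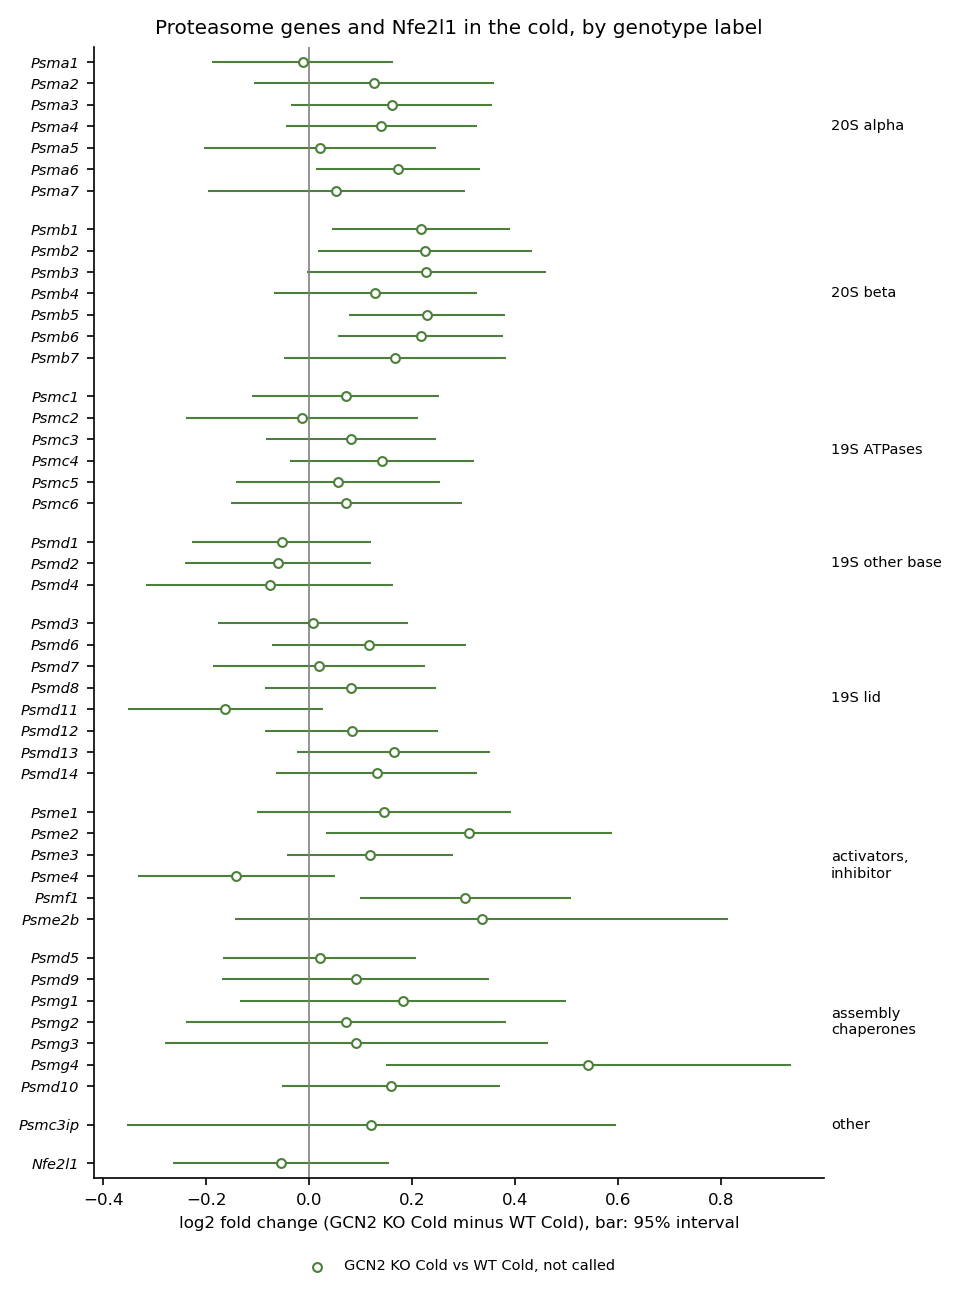
Log2 fold change of each of the 46 genes (rows, grouped by sub-complex) in GCN2 KO Cold against WT Cold, with 95% intervals from limma; open points did not pass at adjusted p under 0.05, as is the case for all 46. The 7 beta ring points lie between 0.13 and 0.23, and the 3 genes of the other base group lie just left of 0.

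The beta ring had the highest median of the sub-complexes of the 26S particle, 0.22, and all 7 of its values were positive. Psmb5 had the smallest p of the ring, with 5088, 5250 and 5484 in GCN2 KO Cold and 4500, 4458 and 4548 in WT Cold. Each knockout-labelled library lay above each wild-type library, and the log2 fold change was 0.23 ± 0.06 (95% interval 0.08 to 0.38, adjusted p = 0.18). Psmb6 had 3526, 3590 and 3739 against 2975, 3150 and 3217 (log2 fold change 0.22 ± 0.07, 95% interval 0.06 to 0.38, adjusted p = 0.204). Psmb7 had 6750, 5830 and 7051 against 6193, 5539 and 5724 and overlapped (log2 fold change 0.17 ± 0.09, adjusted p = 0.454). In the alpha ring Psma6 had 9829, 9298 and 9745 against 8316, 8964 and 8349 (log2 fold change 0.17 ± 0.07, adjusted p = 0.292), whereas Psma1 was at -0.01. The 19S had smaller values. Psmc4 had 3438, 3550 and 3944 against 3342, 3210 and 3342 (log2 fold change 0.14 ± 0.08, adjusted p = 0.442). Psmd13 had 2425, 2403 and 2685 against 2344, 2254 and 2107 (0.16 ± 0.08, adjusted p = 0.395). Psmd2 had 5026, 5507 and 5385 against 5857, 5165 and 5585 and lay at -0.06 ± 0.08 (adjusted p = 0.763).

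The largest value of any member was that of Psmg4, an alpha ring chaperone, with 249, 276 and 195 in GCN2 KO Cold and 152, 160 and 178 in WT Cold (log2 fold change 0.54 ± 0.17, adjusted p = 0.199). Psmf1 had 536, 543 and 534 against 443, 430 and 434, which are tight groups apart from each other (log2 fold change 0.30 ± 0.09, 95% interval 0.10 to 0.51, adjusted p = 0.185). Psme2 had 2865, 2954 and 2245 against 1994, 2189 and 2284, where library C of GCN2 KO Cold fell inside the wild-type range (log2 fold change 0.31 ± 0.12, adjusted p = 0.278). Nfe2l1 had 10342, 10005 and 10863 against 11581, 11293 and 9627, and its log2 fold change was -0.05 ± 0.09 (95% interval -0.26 to 0.15, adjusted p = 0.822). Psmb8, Psmb9 and Psmb10 were at 0.15, 0.11 and 0.22 with adjusted p from 0.431 to 0.799, and Psme1 was at 0.15. The values of the interferon-induced genes were negative in 11 of 12 (median -0.15) and those of the leukocyte markers in 9 of the 11 tested (median -0.39). None of them passed the adjusted test. The signs of Psmb8 and Psmb9 did not hold in some of the alternative fits, and a link of these lists to the inducible subunits and PA28 was not tested.

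With library totals the median of all genes moved to -0.12 and the median of the members was 0.00. The members were 0.12 above the median of all genes on both scales, a distance that library scaling cannot alter. At an unadjusted p under 0.05 (limma), 1 member was higher and 2 lower with library totals. The share of all genes at that p was not counted on this scale. By the adjusted test the split of higher to lower calls over all genes went from 29 and 37 to 11 and 52. Skeletal muscle markers were lower in all 12 cases on the deposited scaling, none by the adjusted test. All 12 had an unadjusted p under 0.05 (limma), beside 7.49% of all genes that were lower at that p. Their summed level was 1327, 1015 and 338 CPM in GCN2 KO Cold against 3697, 3448 and 2203 CPM in WT Cold. The part of these markers in the values of the members was not tested.

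The library kit named in the labels does not mark strand, so reads of overlapping genes cannot be told apart. By annotation (GENCODE M21, GRCm38) 13 members share exon bases with another gene. The largest shares are in Psmd9 (25.5%), Psmc3ip (21.2% with Mlx), Psmb5 (12.1% with Mir686), Psmb7 (11.8% with Nek6) and Psmd13 (10.1% with Sirt3). Psma6 lies at chr12:55384222-55418454 and Psma1 at chr7:114264606-114276118, and neither shares exon bases with another annotated gene. Nfe2l1 lies at chr11:96817414-96829968 and shares none either.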

How the data were processed

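RNA of brown adipose tissue was sequenced in 9 libraries, 3 each of WT RT, WT Cold and GCN2 KO Cold, and group labels were taken from the sample titles, except for 1 GCN2 KO sample whose title names both genotypes and which was placed by its genotype field. Per the labels and the submitters' processing notes, the authors trimmed reads with Trimmomatic 0.36, aligned them with STAR 2.5.2b (GRCm39 is the named build), counted them per gene with featureCounts (Subread 1.5.2) and ran DESeq2 on 2 groups at a time. The deposited signal values are read counts divided by size factors, normalized within each of 3 tables. Columns with the authors' own fold changes (log2) and p-values were left unused, and 0 columns belonged to other samples. Dividing by the step of each library returned whole reads for 100% of values (tolerance 0.001). Libraries held 27058799 to 30768064 reads, and no pair was identical.

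Each comparison was fitted with limma 3.58.1 (R 4.3.3) with a mean-variance trend on log2(normalized count + 1), two-sided, with Benjamini-Hochberg adjustment over every gene of the table and calls at adjusted p under 0.05. Fold changes are on that log2 scale. The alternatives included DESeq2 1.42.0 and edgeR 4.0.16 on the recovered reads, TMM and library-total scaling, and pseudocounts of 0.5 and 5. Others were a mean count of at least 50, no trend, 1 fit over all 9 libraries on library totals, and leaving out each library. An absolute log2 fold change over 1, as the study required, was added in another. The fit was also run on simulated data, and the outcome is not reported here. The labels name no separate cultures or litters, and p-values measure the spread between these libraries. The tables carry library codes, each placed in its group by the pair of tables that share it, and not tied to replicate numbers, so A, B and C follow the order of the codes.

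Levels were compared between genes as CPM per kilobase of exon, with lengths and positions from GENCODE M21 (GRCm38), matched by gene ID for 16900 of 16937 genes. Promoter windows came from RefSeq. The members, the lists of partner, interferon and cell type genes, the 4 letter patterns and the printed windows were chosen with earlier results of these data known. Values in every library were given by rule for Nfe2l1, Psmb5, Psmb6, Psmb7 and, in each comparison and sub-complex, the called member with the largest change or, with none called, the smallest p. Psma1, Psme1, Psme2 and Psme3 were added where the rule did not name them, after their values were seen. The list of ubiquitin genes and activating enzymes and some cell type markers are not reported here.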

Additional observations from a re-analysis of the deposited data

How the results depend on the processing

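No paired analysis was possible because the columns carry no replicate numbers. For WT Cold against WT RT, the 15 members that rose became 0 with the added fold threshold and 5 at adjusted p under 0.01. They became 7 each with library totals, without the trend and with all 9 libraries in 1 fit. That joint fit also used library totals, and the same fit under TMM, chosen after seeing the data, gave 13. Leaving out a library gave 7 to 12. The 4 that fell became 0 with the fold threshold and 1 at adjusted p under 0.01, and 2 to 4 on leaving out a library. For GCN2 KO Cold against WT RT, the 23 that rose became 0 with the fold threshold and 13 at adjusted p under 0.01 and without the trend. They became 9 with library totals, 10 with all 9 libraries in 1 fit on those totals and 24 with that joint fit under TMM. Leaving out a library gave 14 to 21. None fell; 5 fell with library totals and with all 9 libraries in 1 fit, and 1 with edgeR, with TMM, with a mean count of at least 50 and with all 9 libraries under TMM (a fit chosen after seeing the data), and 0 to 1 on leaving out a library. For GCN2 KO Cold against WT Cold no alternative gave a call.

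Over 68 gene results and 1088 alternative values, 916 kept their direction and side of the threshold, 149 lost the call, 6 gained it and 17 changed sign. Sign changes were small. Psmb6 in WT Cold against WT RT was -0.0005 with edgeR, -0.0008 with TMM, -0.0812 with library totals and with all 9 libraries, and -0.02 with all 9 under TMM, and -0.0225 to 0.0341 on leaving out a library. Nfe2l1 there was -0.178 to 0.0084 on leaving out a library. In GCN2 KO Cold against WT Cold, Psmb8 was -0.0359 to 0.3186 and Psmb9 -0.0318 to 0.2316 on leaving out a library, and Psmb9 was -0.0015 with library totals and -0.0014 with all 9 libraries. Psmd1 in GCN2 KO Cold against WT RT was -0.0829 with library totals and with all 9 libraries. The cause of these moves was not tested, beyond the shift of the median of all genes that library totals bring.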

Other observations

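Nfe2l1 is known to be needed by brown fat in the cold, and 5 genes of the thermogenic program were measured beside it. In WT Cold against WT RT, 4 of the 5 rose: Dio2, which makes active thyroid hormone, by 3.63 ± 0.24 (SE) on the log2 scale (adjusted p = 0.000138, limma), Ppargc1a, a coactivator of mitochondrial genes, by 2.70 ± 0.26, Elovl3, a fatty acid elongase, by 1.17 ± 0.28, and Ucp1 by 1.02 ± 0.16. Cidea, a lipid droplet protein, was at 0.11 ± 0.08 (adjusted p = 0.341). In GCN2 KO Cold against WT RT all 5 rose, by 0.50 for Cidea to 3.77 for Dio2. In GCN2 KO Cold against WT Cold all 5 values were positive and none passed, with adjusted p from 0.096 for Cidea to 0.962 for Ppargc1a. Of 10 adipocyte markers, Ucp1 and Cox7a1, a subunit of cytochrome oxidase, rose in WT Cold and Plin1, a lipid droplet coat protein, fell, counts near the shares of all genes (13.6% and 14.1%), and 4 rose in GCN2 KO Cold (all genes, 16.4%), where Fabp4 and Cidea joined Ucp1 and Cox7a1.

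The partner lists in GCN2 KO Cold against WT RT had these counts, beside 16.4% of all genes that rose and 17.8% that fell. Of 20 genes for the control of Nfe2l1, 8 rose and 4 fell, with Maff at 1.22 and Nfe2l3 at -1.05 as the extremes. Of 11 genes on the proteasome partner list, 5 rose, led by Sem1, a small lid subunit, at 0.36. The 2 that fell were Uchl5 at -0.57 and Pitpnm1, not known as a proteasome partner, at -0.70. Of 8 receptors and shuttles, Rad23b rose and Sqstm1 and Ubqln2 fell, counts near those shares. In GCN2 KO Cold against WT Cold no gene of these lists passed. The gene of the Nfe2l1 control list with the smallest p there was Mafk, with 946, 866 and 918 normalized counts against 1218, 1354 and 1160 (log2 fold change -0.45 ± 0.09, adjusted p = 0.0986), and was singled out after its value was seen.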
